A study of Arabidopsis thaliana with 3 samples.

Results

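The loci described here encode, or are annotated by their relation to, MYB, NAC and WRKY transcription factors, and all of them lay near a region bound by PISTILLATA (PI) or APETALA3 (AP3) in young Arabidopsis flowers. Members were chosen by a measured value, the presence of a locus in the authors' gene table of PI or of AP3, together with the words myb, NAC domain or WRKY in the annotation text. The rule found 47 loci among 3132 listed in either table. It leaves out 11 loci of organ polarity, organ boundaries and greening by name, of which 6 were listed. Because listing decided membership, the presence of these loci in the tables is a description and supports nothing.

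Both libraries came from chromatin immunoprecipitation followed by sequencing (ChIP-seq) with an anti-GFP antibody. The plants of the PI library were PI-GFP AP1-GR ap1 cal, those of the AP3 library AP3-GFP AP1-GR ap1 cal, and those of the negative control AP1-GR ap1 cal, all in the Ler background. In this system AP1-GR, driven by the 35S promoter, starts flower development in ap1 cal inflorescences when dexamethasone is given. Plants about 4 weeks old, grown at 20 degrees, received 10 µM dexamethasone, and flowers were collected 4 days later at about stage 4 to 5. Whole flowers were used, so cells with and without the B-class proteins were pooled. Each factor had 1 library, which leaves no replicate check, and files of the control were not analysed here. Both lists were made against the same control, so values of PI and AP3 are set side by side and likeness between them is not evidence of joint binding.

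PI and AP3 are MADS-domain proteins of the floral B class, and their heterodimer specifies petals and stamens. MYB proteins bind DNA through helix-turn-helix repeats. The large R2R3 group has a pair of such repeats and includes regulators of epidermal cell fate, axillary meristems, phenylpropanoid metabolism and stamen maturation, whereas other MYB-domain proteins act in the circadian clock or the cell cycle. NAC proteins share an N-terminal DNA-binding domain and act in boundaries, secondary walls, senescence and stress. WRKY proteins bind W-box elements and are best known from pathogen defence, with some members in trichomes, seed coats and pollen.

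A score is the authors' own value for a peak, named Poisson in the file headers. It has no stated normalization between libraries, so its order within a list carries the information. Scores ran from 25.3 to 9217 over 1852 PI peaks (median 88.1) and from 26.6 to 9926 over 1524 AP3 peaks (median 58.6). The gene tables give the highest score in 5 windows, which are 2000 to 3000, 1000 to 2000 and 0 to 1000 bp upstream, the gene itself and 0 to 1000 bp downstream. All positions are on TAIR10. Numbers of reads are not in these tables, so the depth behind a score is unknown and a weak site may be missing from the shorter list.

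Of the 47 members, 42 were listed for PI, 28 for AP3 and 23 for both. Among protein-coding genes as a whole, 8.69% were listed for PI and 7.26% for AP3. Among all loci in either table, 49.7% were in both, 31.5% in that of PI alone and 18.8% in that of AP3 alone. For the members these groups held 23, 19 and 5 loci. The PI scores of members had a median of 91.6 (28.1 to 803), against 87.7 for all PI targets. Their AP3 scores had a median of 114 (34.3 to 1078), against 58.2 for all AP3 targets. The PI median was thus close to that of all PI targets, and the AP3 median was above that of all AP3 targets. Because listing chose the members, these values describe them and are no test. The member nearest to the low end of the PI list was NAC102 at 28.1 (rank 1845), and nearest to that of AP3 was TRFL6 at 34.3 (rank 1319). Genes without a peak past the authors' threshold have no score in these tables.

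By annotation the members were 10 R2R3-type MYB factors, 16 other proteins with a MYB or MYB-like domain, 8 NAC factors, 9 WRKY factors and 4 proteins whose text holds a family word in another context. The median PI score was 104 for the R2R3 group, 94.7 for the other MYB proteins, 49.9 for the NAC group and 89.3 for the WRKY group. The median AP3 scores were 147, 112, 59.8 and 137 in the same order. The NAC members had the lowest medians of these 4 groups, and their medians depend on the wording and exclusions of the rule. With the listed NAC genes that the rule misses or leaves out, such as ANAC055 and CUC1, the NAC medians were 101 for PI (14 genes) and 96.1 for AP3 (8 genes). The other groups were not enlarged in the same way, so these values cannot be ranked against their medians.

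**Figure D1:**
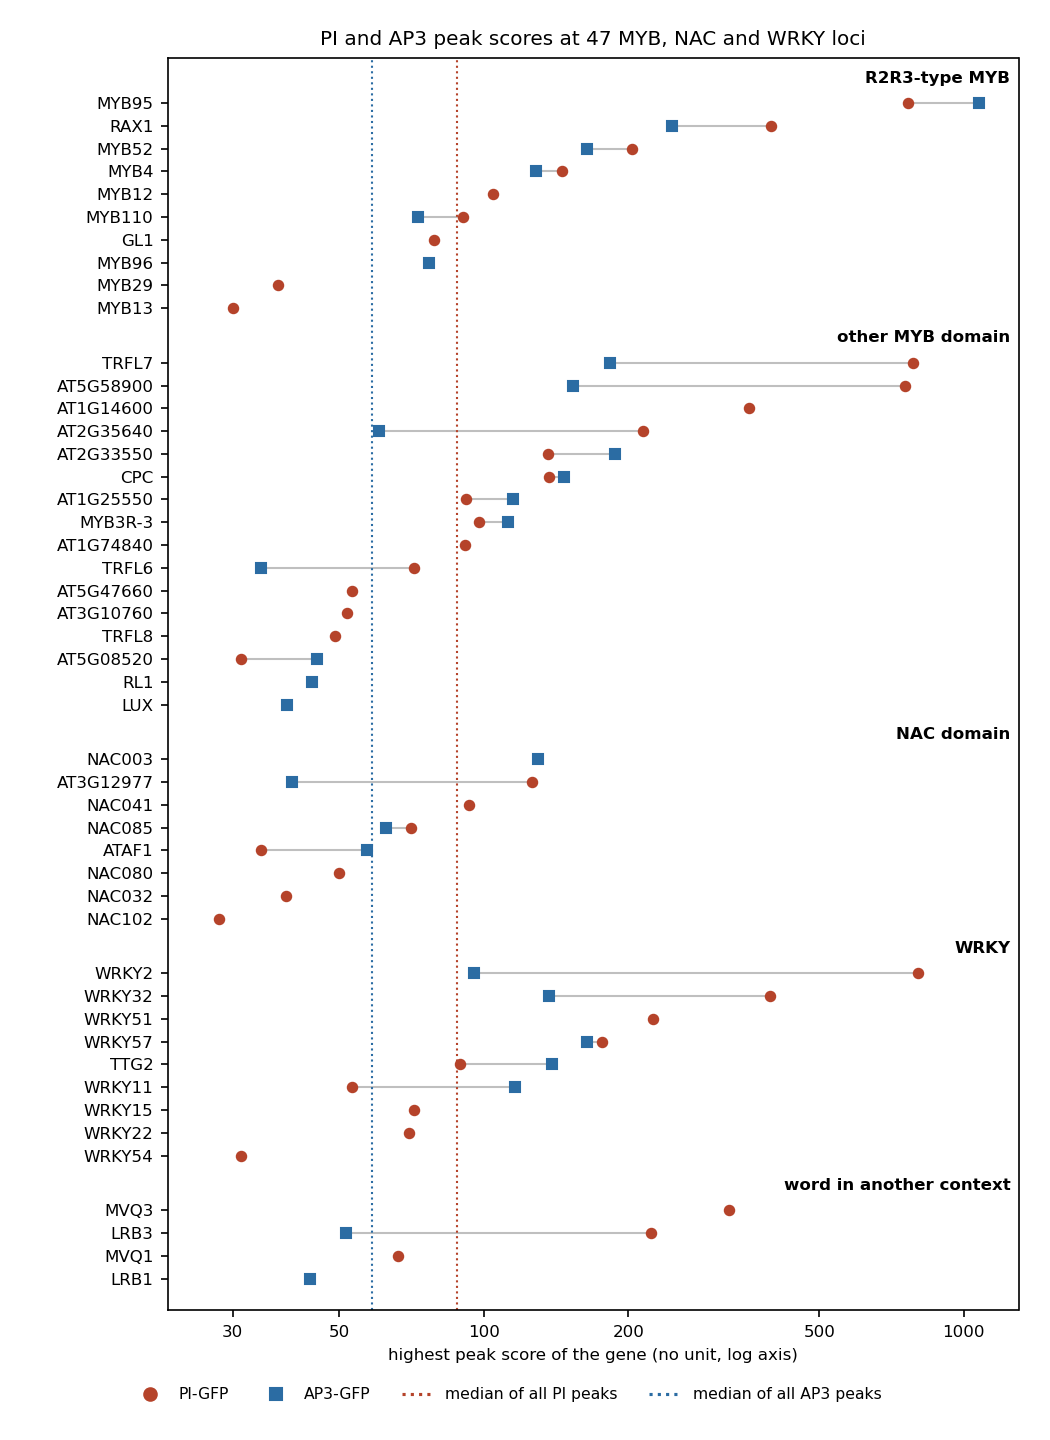
Highest peak score of each of the 47 members (log axis, no unit) in the PI-GFP library (circles) and the AP3-GFP library (squares), grouped by annotation. A member with 1 symbol is listed in 1 table, and dotted lines mark the median of all peaks (88.1 for PI, 58.6 for AP3). MYB95 is highest for AP3 (1078) and WRKY2 for PI (803).

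Among R2R3 genes, MYB95 (AT1G74430) carried the strongest sites. Its peak scored 765 for PI (rank 72 of 1852) and 1078 for AP3 (rank 14 of 1524), the only member among the 100 highest AP3 peaks. The PI peak spanned chromosome 1, 27976966 to 27977556, inside the gene, and that of AP3 spanned 27976769 to 27977495. The authors' tables also place both inside the locus AT1G74440, so the windows do not tie the peak to 1 of these genes. A second PI peak, of score 104, lay downstream of MYB95 at 27977779 to 27978084.

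RAX1 (AT5G23000, also MYB37), which promotes the formation of axillary meristems, was the only member with peaks in more than 1 window of both tables. Inside the gene it scored 396 for PI (chromosome 5, 7697441 to 7698052) and 247 for AP3 (7697448 to 7697958). Farther out, 1000 to 2000 bp upstream, it scored 198 for PI at 7694808 to 7695581 and 160.0 for AP3 at 7694841 to 7695186. The maxima of the inner pair were 9 bp apart, at 7697671 for PI and 7697662 for AP3. Those of the upstream pair stood at 7694986 for PI and 7694984 for AP3. The inner peaks were listed for RAX1 alone, whereas the upstream ones also lay 2000 to 3000 bp upstream of AT5G22990, a zinc finger gene. Its relatives RAX2 and RAX3 were in neither table.

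MYB52 (AT1G17950), a gene linked to secondary cell walls, scored 204 for PI and 164 for AP3 at 2000 to 3000 bp upstream, and the same peaks lay closer to AT1G17940. MYB4 (AT4G38620), a repressor in phenylpropanoid metabolism that responds to UV-B, scored 146 for PI (chromosome 4, 18055406 to 18055774) and 129 for AP3 (18055379 to 18055726). These peaks lay 0 to 1000 bp downstream and were listed for no other gene. MYB110 (AT3G29020) scored 90.6 for PI and 72.9 for AP3 at 0 to 1000 bp upstream. In all 3 of these genes the scores of each library were above the median peak of that list.

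The remaining R2R3 genes stood in 1 table. MYB12 (AT2G47460), an activator of flavonol synthesis genes, scored 104 for PI inside the gene at chromosome 2, 19477269 to 19477715, and had no AP3 listing. GL1 (AT3G27920), which starts trichome development, scored 78.8 for PI at 1000 to 2000 bp upstream. MYB29 (AT5G07690), a regulator of aliphatic glucosinolates, scored 37.3, and MYB13 (AT1G06180) scored 30.04, both for PI at 0 to 1000 bp upstream. MYB29 and MYB13 were at ranks 1678 and 1814 of 1852, near the low end of the list. MYB96 (AT5G62470), an abscisic-acid-induced activator of cuticular wax genes, was listed for AP3 alone, with a score of 77.1 inside the gene.

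Of the other MYB-domain proteins, TRFL7 (AT1G06910), which resembles telomere-repeat-binding factors, had the highest PI score, 786 (rank 70), and an AP3 score of 183 (rank 234). The PI peak spanned chromosome 1, 2120566 to 2121216, and the AP3 peak 2120648 to 2121273, within 1000 bp upstream of TRFL7 and equally of its neighbor AT1G06900. TRFL6 (AT1G72650) scored 71.4 for PI and 34.3 for AP3 inside the gene, and TRFL8 (AT2G37025) scored 48.96 for PI alone, at a peak that lay inside AT2G37020. Of the 10 genes named TRF-LIKE, 3 were listed for PI and 3 for AP3, where 8.69% and 7.26% of all protein-coding genes were listed. These few genes were not tested against that background, so the counts are a description. The third for AP3 was TRFL9, whose annotation lacks the words of the rule.

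AT5G58900 is annotated as similar to DIVARICATA, a MYB factor that gives ventral petals their identity in Antirrhinum. It scored 753 for PI inside the gene (rank 74) at chromosome 5, 23785041 to 23785540, and 154 for AP3 (rank 298) at 23785122 to 23785455. Neither peak was listed for another gene. A weaker PI peak, of 63.3, lay 1000 to 2000 bp upstream at 23786590 to 23786856. RL1 (AT4G39250) belongs to the RADIALIS-like genes, named after the Antirrhinum factor of dorsal petals. It was listed for AP3 alone, with 43.99 at 2000 to 3000 bp upstream, and this peak lay inside the neighboring gene CCR1 (AT4G39260). The nearest PI peak was 122 bp from it. RL1 was the 1 gene listed among 6 RADIALIS-like genes, beside 8.69% of all protein-coding genes for PI and 7.26% for AP3.

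CPC (AT2G46410), a small R3-type MYB protein that promotes root hairs and represses trichomes, scored 137 for PI (chromosome 2, 19050839 to 19051207) and 147 for AP3 (19050782 to 19051127). The peaks lay 0 to 1000 bp upstream, and CPC had the closest window of the listed genes. MYB3R-3 (AT3G09370), a repressor of genes of the late cell cycle, scored 97.7 for PI and 112 for AP3 at 0 to 1000 bp upstream, with maxima 109 bp apart. It was the 1 listed gene of 5 MYB3R genes, beside 8.69% of all protein-coding genes for PI and 7.26% for AP3. LUX (AT3G46640), a component of the evening complex of the clock, was listed for AP3 alone at 39.02, with the peak also upstream of AT3G46630.

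AT1G14600, a putative MYB factor of the SHAQKYF type, had the highest score of any member found in 1 table. Its PI peak of 357 (rank 229) spanned chromosome 1, 5003976 to 5004779, within 1000 bp upstream, and was listed for no other gene. The nearest AP3 peak lay 43111 bp away. AT2G35640, annotated as a hydroxyproline-rich glycoprotein with a MYB-like domain, scored 214 for PI and 60.5 for AP3, and AT2G33550, annotated as GT-2-related, scored 136 for PI and 188 for AP3. The peaks of both lay 0 to 1000 bp downstream, and also 0 to 1000 bp upstream of CSLA07 (AT2G35650) and of CPL3 (AT2G33540), respectively. These windows do not tell which gene is closer. AT1G25550 scored 91.7 for PI and 115 for AP3 at 0 to 1000 bp upstream. AT5G08520 scored 31.3 for PI and 44.9 for AP3, and this AP3 peak, 1000 to 2000 bp upstream, lay inside the neighboring gene CI51 (AT5G08530). AT1G74840 (91.5), AT5G47660 (53.1) and AT3G10760 (51.9) were listed for PI alone.

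Among the NAC members, the highest score was that of NAC003 (AT1G02220), 130 for AP3 at 0 to 1000 bp upstream, and it was not listed for PI. AT3G12977, annotated by similarity to NAC1, scored 126 for PI (chromosome 3, 4146046 to 4146705) and 39.95 for AP3 (4146120 to 4146342). Its maxima lay 370 bp apart, the widest distance among members with a position in both lists, and the peaks fell within or directly upstream of the neighboring gene HAC5 (AT3G12980). NAC041 (AT2G33480) scored 93.1 for PI alone. NAC085 (AT5G14490), which acts in the arrest of the cell cycle after DNA damage, scored 70.5 for PI and 62.7 for AP3 at 1000 to 2000 bp upstream, in both cases at a peak closer to AT5G14495. NAC080 (AT5G07680) scored 49.9 for PI alone, 1000 to 2000 bp upstream, and its neighbor MYB29 had a separate weak PI peak.

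ATAF1 (AT1G01720), a stress and senescence factor, scored 34.4 for PI (chromosome 1, 269628 to 270013) and 57.03 for AP3 (269624 to 269987), inside the gene. Its close relatives NAC032 (AT1G77450) and NAC102 (AT5G63790) scored 38.8 and 28.1 for PI and were not listed for AP3. Of these genes and ATAF2, a group picked after their values were seen, 3 of 4 were listed for PI and 1 of 4 for AP3, beside 8.69% and 7.26% of all protein-coding genes. Every one of their scores was below the median peak of its list.

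The 9 WRKY members were listed for PI, 5 of them also for AP3. Of the 3132 loci in either table, 2544 were listed for PI, and 61.2% of these also for AP3. Listing chose the members, so the WRKY counts are a description. WRKY2 (AT5G56270), which directs the asymmetric division of the zygote and acts in pollen, had the highest PI score of any member, 803 (rank 67), and an AP3 score of 95.6 (rank 469). The PI peak lay 0 to 1000 bp upstream at chromosome 5, 22778989 to 22779589, and the AP3 peak at 22779140 to 22779408. Over 1558 genes of both tables, the ratio of the PI to the AP3 score at WRKY2 had rank 11 from the top. Its pollen partner WRKY34 was in neither table.

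WRKY32 (AT4G30935) scored 396 for PI (chromosome 4, 15053942 to 15054807, rank 198) and 137 for AP3 (15054012 to 15054723, rank 340). This PI peak, of 866 bp, was the widest of any member with a position, and it lay 0 to 1000 bp upstream of AT4G30940 as well. WRKY57 (AT1G69310), known from drought tolerance, scored 176 for PI (chromosome 1, 26059260 to 26059662) and 164 for AP3 (26059294 to 26059665), with maxima 4 bp apart, 1000 to 2000 bp upstream. TTG2 (AT2G37260, also WRKY44), which acts in trichomes and the seed coat, scored 89.3 for PI and 139 for AP3 at 2000 to 3000 bp upstream. The TTG2 peaks lay nearer to AT2G37240 and ADK (AT2G37250), 0 to 1000 bp upstream of both.

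WRKY11 (AT4G31550), a negative regulator of basal resistance to bacteria, scored 53.1 for PI inside the gene and 116 for AP3 at 0 to 1000 bp upstream. The highest peaks of WRKY11 were thus in different windows, which among the members of both tables held otherwise only for AT5G08520. WRKY51 (AT5G64810), a gene of defence and jasmonate signalling, scored 225 for PI alone (rank 362) at chromosome 5, 25907941 to 25908262, within 1000 bp upstream, and the nearest AP3 peak was 74136 bp away. WRKY15 (AT2G23320) scored 71.7, WRKY22 (AT4G01250) 70.04 and WRKY54 (AT2G40750) 31.2, all for PI alone. The WRKY22 peak lay 2000 to 3000 bp upstream of it and closer to AT4G01245, within 1000 bp upstream.

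In 4 members the family word describes another protein. MVQ3 (AT5G53830) and MVQ1 (AT1G28280) contain a VQ motif, the short element through which such proteins bind WRKY factors, and are targets of the kinases MPK3 and MPK6. MVQ3 scored 324 for PI (rank 257) at chromosome 5, 21854902 to 21855256, and MVQ1 scored 66.3, and neither was listed for AP3. LRB3 (AT4G01160) scored 224 for PI and 51.6 for AP3 at 2000 to 3000 bp upstream, and LRB1 (AT2G46260) scored 43.6 for AP3 alone. LRB proteins are BTB adaptors of ubiquitin ligases in light responses, and they match the rule through their similarity to a cereal GAMYB-binding protein. The MVQ3, MVQ1 and LRB3 peaks all lay closer to another listed gene.

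The scores of the 23 members in both tables were set side by side. PI had the larger number in 14 of 23 members (60.9%), against 74.1% of all 1558 genes in both tables. The median of the PI to AP3 score ratio was 1.13 for the members and 1.47 for all these genes. Since scores are not normalized between libraries, the order of the ratios describes the lists and not the amount of protein bound. Among members, the ratio was highest at WRKY2, AT5G58900 (rank 62) and LRB3 (rank 94), and lowest at WRKY11 (rank 1515), ATAF1 (rank 1468) and TTG2 (rank 1447).

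Members missing from the AP3 table mostly had low PI scores, with exceptions. The 19 members of the PI table alone had a median PI score of 66.3 (28.1 to 357), against 137 for the 23 in both. For all targets these medians were 53.1 and 130. At a PI score of at least 200, 3 of 12 members lacked an AP3 listing, namely AT1G14600, MVQ3 and WRKY51, as did 45 of 565 targets in all. Of the 19, 14 had a position, and the nearest AP3 peak lay 5308 to 74136 bp away. Genes missing from the AP3 table have no AP3 peak in the 5 windows, so part of this distance is set by the choice. The 5 members of the AP3 table alone, NAC003, MYB96, RL1, LRB1 and LUX, had a median AP3 score of 43.99, and the 588 such targets in all had 37.9.

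The rule did not use the place of a peak. The highest PI score lay 0 to 1000 bp upstream in 17 of 42 members (40.5%, exact Clopper-Pearson 95% interval 25.6 to 56.7), against 30.8% of all PI targets. For AP3 this was 10 of 28 (35.7%, 18.6 to 55.9), against 27.5% of all AP3 targets. Each peak was also kept for the gene with the closest window, with upstream ranked before downstream. The AP3 share was then 55% of 20 members, against 39.6% of all AP3 targets so treated. Inside the gene lay 21.4% for PI and 21.4% for AP3 (16.9% and 20.8% of all targets). The intervals cover counting error over genes only, and they include the share of all targets in each of the 5 windows of both tables. The window 0 to 1000 bp upstream held the highest PI score of 8 of 14 other MYB-domain genes, 5 of 9 WRKY genes, 3 of 9 R2R3 genes and 1 of 7 NAC genes. Scores in 2 or more windows were found at 4 of 42 members for PI (9.52%) and 2 of 28 for AP3 (7.14%), close to the 12.3% and 11.1% of all targets.

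**Figure D2:**
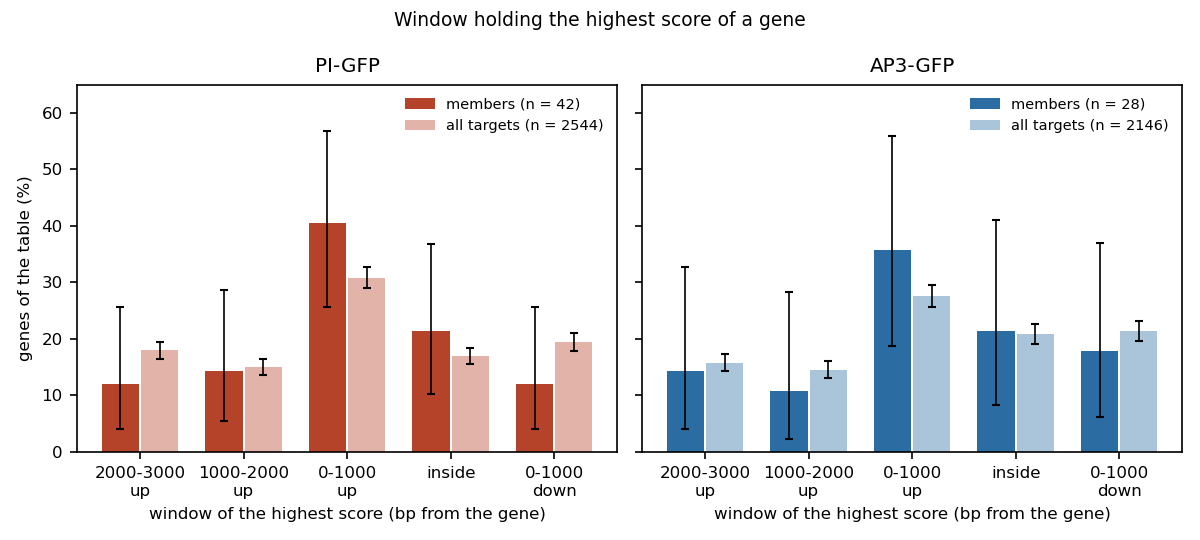
Share of genes (%) whose highest score lies in each window, for members (dark bars, left) and all targets (light bars, right) of the PI-GFP table (left panel) and the AP3-GFP table (right panel). Error bars are exact 95% intervals. The window 0 to 1000 bp upstream holds 40.5% of members for PI and 35.7% for AP3, and the intervals of members include the shares of all targets.

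A peak is often listed for several neighbors, which limits how far it can be tied to a member. For PI, the highest peak of 32 of 42 members was listed for at least 1 other gene, and for 11 members another gene had the closer window. For AP3 these counts were 21 and 9 of 28. Here too, the window 0 to 1000 bp upstream was ranked before 0 to 1000 bp downstream. By this ranking alone, the 11 and the 9 include AT2G35640 and AT2G33550, and the 9 also AT3G12977. Their peaks lay downstream of the member and upstream of a neighbor, and the windows do not tell which gene is closer. The member had the closest window alone in 24 cases for PI and 15 for AP3. These include RAX1, WRKY2, AT5G58900, CPC, MYB4, WRKY57 and ATAF1 in both tables, and AT1G14600 and WRKY51 for PI. MYB3R-3 was also counted in both, but its peaks lay 0 to 1000 bp downstream of AT3G09360 as well.

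The highest peak had 1 position in each list for 18 of the 23 members in both tables. Their maxima lay 3 bp (ATAF1) to 370 bp (AT3G12977) apart, with a median of 29 bp, against 20 bp for all genes whose positioned peaks met. As both lists share the control, the nearness of the maxima is a description. The PI peak was the wider one at 16 of these 18 members, and at 83.3% of all such genes. The exceptions were MYB95 (591 bp for PI and 727 bp for AP3) and MYB3R-3 (343 and 391 bp).

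**Figure D3:**
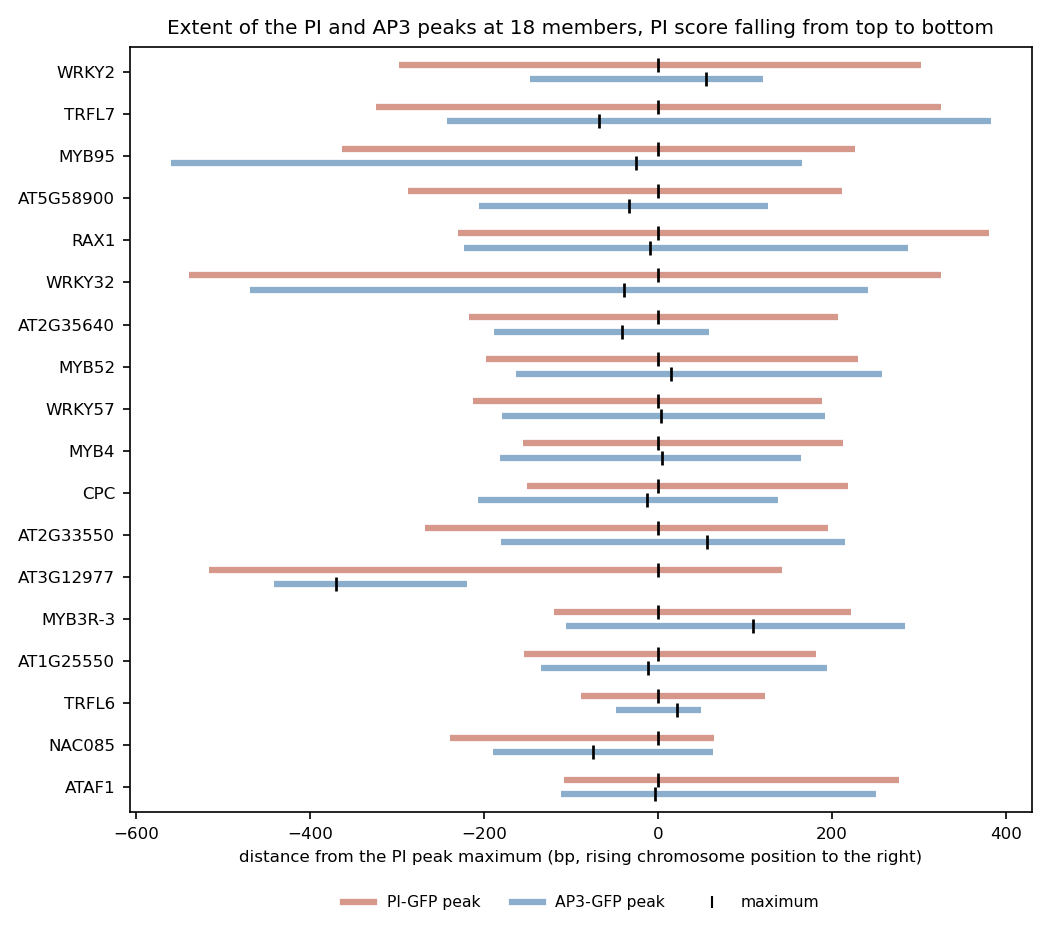
Extent of the highest PI peak (upper bar) and AP3 peak (lower bar) at the 18 members with a position in both lists, in bp from the PI maximum, ordered by PI score. Black ticks are peak maxima. Maxima lie within 50 bp of each other at 12 of the 18 (66.7%), against 70.9% of all genes whose positioned peaks met. AT3G12977 stands apart at 370 bp.

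Listing was also counted over the named families as wholes, with names from the RefSeq table. Of 125 genes named MYB plus a number, 19 were listed for PI (15.2%, 9.41 to 22.7) and 14 for AP3 (11.2%, 6.26 to 18.1). Of 100 genes named NAC plus a number these were 13 (13.0%, 7.11 to 21.2) and 7 (7.00%, 2.86 to 13.9), and of 72 WRKY genes 9 (12.5%, 5.88 to 22.4) and 5 (6.94%, 2.29 to 15.5). All protein-coding genes gave 8.69% for PI and 7.26% for AP3. No test was made of these shares, since the families were picked with earlier results of these data known and listing chose the members. The MYB counts hold AS1 and LOF1 and the NAC counts the 3 CUC genes, which the rule leaves out.

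**Figure D4:**
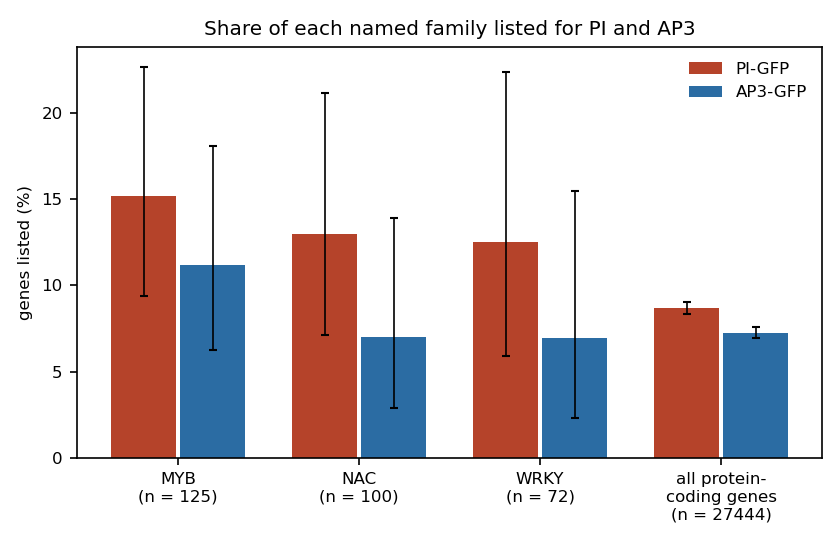
Share of genes (%) listed in the PI-GFP table (left bar) and the AP3-GFP table (right bar) for genes named MYB, NAC or WRKY plus a number and for all protein-coding genes. Error bars are exact 95% intervals. MYB genes reach 15.2% for PI and 11.2% for AP3, against 8.69% and 7.26% of all protein-coding genes.

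Family genes whose annotation lacks the words of the rule were listed as well. MYB44 (AT5G67300) scored 513 for PI and 232 for AP3, both at 2000 to 3000 bp upstream. ANAC055 (AT3G15500) scored 394 for PI and 239 for AP3, both at 0 to 1000 bp downstream. MYB17 (AT3G61250), also LATE MERISTEM IDENTITY2, scored 225 for PI and 91.3 for AP3 at 0 to 1000 bp upstream. NST1 (AT2G46770), which promotes secondary wall thickening in anthers, scored 109 for PI inside the gene, and the drought-induced RD26 (AT4G27410) scored 122 for PI, and neither was listed for AP3. MYB11 (AT3G62610) and MYB111 (AT5G49330) scored 153 and 64.3 for PI, so the flavonol regulators MYB11, MYB12 and MYB111, grouped after their values were seen, were listed for PI in 3 of 3 cases, where all protein-coding genes give 8.69%. Of these 3, MYB11 was in the AP3 table, at 126.

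Lists of genes by role, 8 with 90 genes found in the reference table, gave 14 PI and 10 AP3 listings. These are 15.6% and 11.1% of the 90, against 8.69% and 7.26% of all protein-coding genes, and the lists were written with earlier results known. No test was made of the single lists of 7 to 16 genes, so a count, 0 included, is not read as a result about its list. The list of 13 MYB genes, mostly of stamens and pollen, such as MYB21, MYB24 and DUO1, held 0 for PI and 0 for AP3. The 10 flavonoid and anthocyanin MYB genes held 4 for PI (MYB11, MYB12, MYB111 and MYB4) and 2 for AP3 (MYB11 and MYB4). The 11 epidermal MYB genes held 3 for PI (MYB17, GL1 and CPC) and 2 for AP3 (MYB17 and CPC). RAX1 was the 1 gene listed of 7 axillary meristem and growth genes, for PI and AP3, and LUX the 1 of 7 clock genes, for AP3.

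The 14 secondary wall and root cap NAC genes held 2 for PI (NST1 and VND2) and 1 for AP3 (VND2). The 12 senescence, stress and seed NAC genes held 2 for PI (ATAF1 and RD26) and 1 for AP3 (ATAF1). NAP (AT1G69490), whose full name is NAC-LIKE, ACTIVATED BY AP3/PI, was in neither table. The 16 WRKY genes held 2 for PI and the same 2 for AP3, TTG2 and WRKY2. A gene absent from a table may have a site below the authors' threshold or beyond the 5 windows.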

How the data were processed

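ChIP-seq files of 1 PI-GFP and 1 AP3-GFP library were analysed. Per the submitters' processing notes, BWA 0.6.1, SAMtools and the TAIR10 build were used. The peak caller, its threshold and the set of gene models are not stated there. For each library the authors deposited peaks with a score, named Poisson per the file headers, and a gene table with the highest score in 5 windows. Read numbers were not analysed, so the depth is unknown.

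Members were found by text in the annotation column and grouped by hand into classes. The members and lists were chosen with earlier results of these data known. Gene names came from a RefSeq table of TAIR10.1, and none of its coordinates were used. In all, 2 list symbols (RVE6 and VND6) were not resolved. A gene was placed where 1 peak of its chromosome had its score. Loci with the same score and locus numbers at most 150 apart were taken to share a peak. Genes were named by class and score (up to 6 per class and library), by table, by score ratio and by role list. Values are descriptions without tests, with exact Clopper-Pearson intervals (SciPy 1.17.1, pandas 2.3.3). Functions were tested on simulated tables. Alternatives were a stricter score, narrower windows, a stricter reading of the annotation, 1 gene per peak and stricter overlap. A search for CArG boxes was planned and not run, since no genome sequence was used here.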

Additional observations from a re-analysis of the deposited data

How the results depend on the processing

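Counts of listed members depended on the authors' threshold and windows. With scores at or above the median peak score, 24 of 42 members remained listed for PI, as did 1271 of all 2544 PI targets. For AP3, 20 of 28 members and 1069 of 2146 targets remained. In both tables, 16 of 23 members and 830 of 1558 targets remained. When only scores inside the gene or up to 1000 bp upstream were kept, 26 remained for PI, 17 for AP3 and 14 in both tables, against 42, 28 and 23, and all targets came to 1323 for PI, 1118 for AP3 and 778 in both, against 2544, 2146 and 1558. Under the other alternatives these counts stayed within 1.5 times of the reported ones. When each peak was kept for the gene with the closest window, 35 of 47 members remained in either table, as did 2012 of 3132 targets. Leaving out the 4 loci with a family word in another context gave 39 for PI, 26 for AP3 and 22 in both. The shares of highest scores 0 to 1000 bp upstream ran from 37.5% to 51.6% for PI and from 38.5% to 55% for AP3 and stayed inside their intervals. The highest of each came from keeping the closest gene, which favours near windows, and upstream over downstream ones, by construction. Over all targets it gave 45.4% for PI and 39.6% for AP3. The CArG box search was not run. No paired analysis was possible because each factor had 1 library and no result comes from a test between samples. The lack of replicates and of read numbers limits every value here.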
